A study of Homo sapiens with 8 samples.

Results

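AMOTL1 and the kinase cascade of the Hippo pathway were examined in Jurkat cells, an established human T-cell acute lymphoblastic leukaemia line, with and without CBAP, the protein encoded by TMEM102. The group was set as 10 named genes, AMOTL1, LATS1, LATS2, STK3, STK4, SAV1, MOB1A, MOB1B, NF2 and TEAD2. Of these 10 genes, 9 had a row among the 13453 genes of the expression table and TEAD2 was not analysed here. The group was selected on the lower AMOTL1 values in the CBAP-deficient libraries, so AMOTL1's own difference with CBAP is given as a description, without a test, and only the other 8 members were tested for it.

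RNA-seq had been run on 8 libraries, 2 in each of 4 conditions. In the shRNA set, sh-Ctrl cells carried a non-targeting hairpin and sh-CBAP cells a hairpin against CBAP, both delivered by lentivirus and kept as stable puromycin-selected clones. In the CRISPR set both conditions shared the CRISPR/Cas9 knockout of CBAP. CBAP-reconstituted cells were knockout cells given a CBAP-GFP fusion, and CBAP-KO+GFP cells were knockout cells given GFP alone. The control of the CRISPR set was therefore a rescued knockout clone and not an unedited line, and a knockout line grown from single sorted cells cannot be told apart from an effect of the clone. The sh-Ctrl and CBAP-reconstituted libraries are called CBAP-expressing here, and the other 4 CBAP-deficient. The words with CBAP and without CBAP refer to these classes. Knockdown left TMEM102 transcript in sh-CBAP cells, where its mean FPKM was 1.58-fold lower than in sh-Ctrl cells. Values are FPKM, fragments per kilobase of transcript scaled to the mapped fragments of the library, which allow levels to be compared between genes. Changes are differences of log2(FPKM + 1), which are compressed where FPKM is small, and calls are limma tests over the 11427 genes whose mean FPKM reached 1, Benjamini-Hochberg adjusted, at a threshold of 0.05. No source says that 2 libraries of a condition came from separate cultures, so p-values measure only the spread between these libraries.

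The Hippo pathway is a kinase cascade that restrains growth. STK3 and STK4, held by the scaffold SAV1, phosphorylate LATS1 and LATS2, which work with the adaptors MOB1A and MOB1B and phosphorylate the co-activators YAP1 and TAZ, keeping them out of the nucleus and away from the TEAD transcription factors. NF2 recruits LATS kinases to the membrane, and the motins AMOT, AMOTL1 and AMOTL2 bind YAP1 and the LATS kinases and hold YAP1 at junctions and in the cytoplasm. In lymphocytes STK4 is the best known of these kinases, since its loss in people causes a T-cell immunodeficiency.

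All 12 T-cell markers examined were detected in every library, none of 5 myeloid markers had a row, and CD79A was the only one of 5 B-cell markers with a row. Epithelial and fibroblast markers, 3 of 7 with a row, summed to 3.78 and 4.67 FPKM in CBAP-reconstituted libraries and to 1.07 to 1.88 FPKM in the other 6. The CBAP-reconstituted libraries stood apart in some markers. CD5 was at 0.18 and 0.231 FPKM there against 19.7 to 27.4 FPKM in the other 6 libraries. CD28 was at 2.93 and 2.59 FPKM against 24.1 to 37.5 FPKM, and CD79A at 0.732 and 1.09 FPKM against 9.60 to 22.5 FPKM. CD2, CD7 and CD247 were also lowest there. TAL1 was highest there, at 80.7 and 80.1 FPKM against 57.7 to 66.3 FPKM. CD3D, CD3E, LCK and PTPRC lay within the range of the other libraries. Every change within the CRISPR set below rests on the CBAP-reconstituted libraries, and their part in it was not tested. TMEM102 was at 4.07 and 4.74 FPKM in sh-Ctrl cells and at 2.69 and 2.89 FPKM in sh-CBAP cells, but 0 was listed for each of the 4 CRISPR-set libraries, so its values did not check the labels there. A listed 0 can be a failed estimate in this table, where 710 genes were at 0 in some library and at 5 FPKM or more in another. None of the 9 members had a listed 0.

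AMOTL1, the motin on which the group was selected, had 9.78 and 8.34 FPKM in sh-Ctrl cells and 8.84 and 8.57 FPKM in CBAP-reconstituted cells. Its level was 0.881 and 0.767 FPKM in sh-CBAP cells, and 1.69 and 1.68 FPKM in CBAP-KO+GFP cells. The 4 CBAP-deficient libraries lay far below the 4 CBAP-expressing ones, and both sets showed it. The mean FPKM was 11-fold lower in sh-CBAP than in sh-Ctrl cells and 5.17-fold lower in CBAP-KO+GFP than in CBAP-reconstituted cells, which on the log2(FPKM + 1) scale is a difference of -2.46 and -1.85. Among the 11427 genes, AMOTL1 ranked 69 from the lowest in the shRNA set and 296 from the lowest in the CRISPR set, and 18 genes, AMOTL1 among them, were lower by at least as much in both sets.

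The AMOTL1 gene lies on the forward strand of chromosome 11, chr11:94439597-94609913 in GRCh37 (hg19), the build used for the deposited values. The nearest genes on either side that had a row differed less between the conditions. ANKRD49 and FUT4 precede it, with FPKM of 11.5 to 19.0 and 6.33 to 11.2. ANKRD49 was at 13.1 and 11.5 FPKM in sh-Ctrl and 15.3 and 16.2 FPKM in sh-CBAP cells, opposite in direction to AMOTL1. CWC15 and KDM4D follow it. CWC15, a splicing factor, was at 42.0 and 43.2 FPKM in sh-Ctrl and 43.5 and 51.2 FPKM in sh-CBAP cells. In the CRISPR set CWC15 went in the direction of AMOTL1, from 57.3 and 65.0 FPKM in CBAP-reconstituted to 41.4 and 43.9 FPKM in CBAP-KO+GFP cells. KDM4D, a histone demethylase, was at 1.49 and 1.20 FPKM in sh-Ctrl and 0.500 and 0.501 FPKM in sh-CBAP cells, but its CBAP-KO+GFP values of 1.14 and 1.28 FPKM lay less far under the 1.95 and 1.54 FPKM of CBAP-reconstituted cells.

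The 250 bases before the RefSeq start of AMOTL1 are shown because this gene carries the difference, and those of YAP1, the co-activator that motins bind, because its level was highest in CBAP-reconstituted cells. Both are on the forward strand in GRCh38.p14, AMOTL1 at chr11:94768106-94768355 and YAP1 at chr11:102110197-102110446, and each matched GRCh37 exactly once. The AMOTL1 window lies inside the annotated AMOTL1 gene, since the annotation holds transcripts that start farther upstream. Capitals mark a match, on either strand, to the TEAD core GGAATG or to the MYC E-box CACGTG, motifs that do not overlap each other.
AMOTL1: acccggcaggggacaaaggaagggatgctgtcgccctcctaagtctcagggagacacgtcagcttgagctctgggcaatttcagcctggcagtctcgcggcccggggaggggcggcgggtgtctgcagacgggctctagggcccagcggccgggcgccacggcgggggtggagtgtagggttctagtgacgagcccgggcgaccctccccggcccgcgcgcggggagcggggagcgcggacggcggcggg
YAP1: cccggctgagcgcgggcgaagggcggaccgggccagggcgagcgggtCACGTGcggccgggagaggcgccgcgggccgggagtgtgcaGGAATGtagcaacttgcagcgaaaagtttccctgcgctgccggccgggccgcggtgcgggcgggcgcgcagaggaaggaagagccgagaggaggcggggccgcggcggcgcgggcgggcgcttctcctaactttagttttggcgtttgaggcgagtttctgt
Both windows are rich in G and C, at 73.2% for AMOTL1 and 72% for YAP1. Neither motif was matched in the AMOTL1 window, while YAP1 held 1 of each. Of 35116 promoter windows of this length, 11.9% held the TEAD core and 6.34% the E-box, so a window without either was common.

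AMOTL1 was the most abundant motin wherever CBAP was expressed. AMOT, AMOTL1 and AMOTL2 summed to 10.4 to 12.1 FPKM in the CBAP-expressing libraries, and AMOTL1 made up 80.4% to 81.8% of the sum. In the CBAP-deficient libraries the sum was 2.99 to 3.54 FPKM, and AMOTL1's share was 24.9% and 25.7% in sh-CBAP and 53.1% and 52.2% in CBAP-KO+GFP cells. AMOT, the founding motin, was at 1.97 and 1.64 FPKM in sh-Ctrl and 2.02 and 1.65 FPKM in sh-CBAP cells, so in the knockdown the largest motin share passed to AMOT, at 57.0% and 55.1%. In the CRISPR set AMOT was at 1.32 and 1.23 FPKM with CBAP and at 0.820 and 0.765 FPKM without it, and it fell by 0.34 on the log2 scale (SE 0.11, limma adjusted p = 0.0423). The same contrast called 49.9% of all genes tested, 25.9% lower, and the effect of leaving out a library on the AMOT call was not examined. AMOTL2 was at 0.322 and 0.402 FPKM in sh-Ctrl, 0.641 and 0.575 FPKM in sh-CBAP, 0.733 and 0.672 FPKM in CBAP-reconstituted and 0.668 and 0.775 FPKM in CBAP-KO+GFP cells, too low to be tested. The sum of the 3 motins therefore followed AMOTL1, and neither relative was higher by an amount that made up for it.

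**Figure D1:**
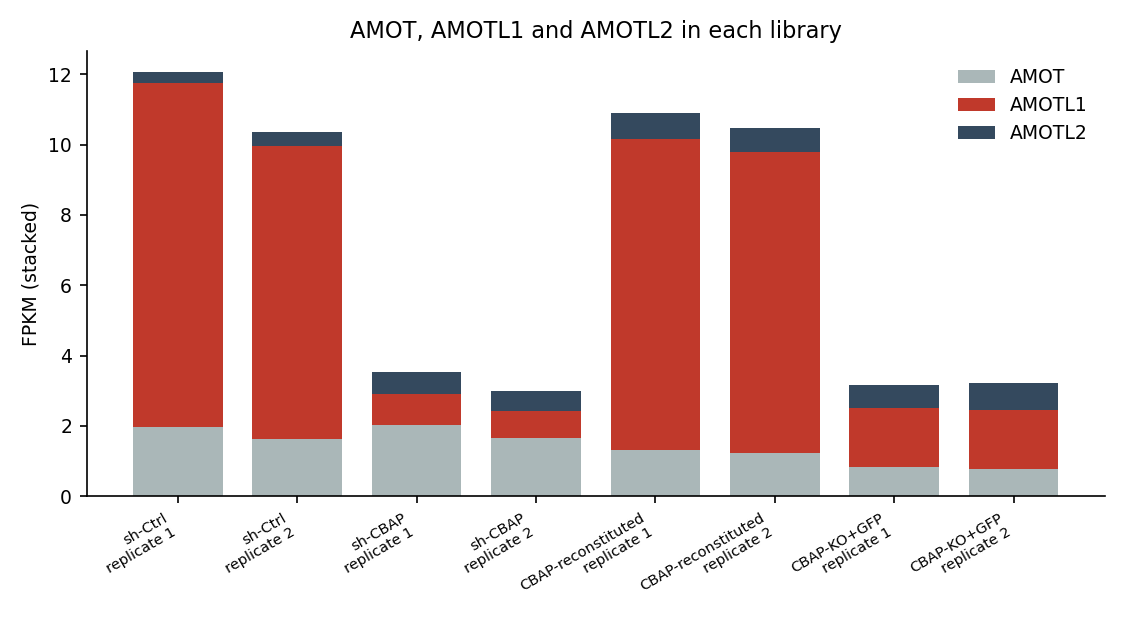
Stacked FPKM of AMOT, AMOTL1 and AMOTL2 (vertical axis) in each of the 8 libraries (horizontal axis). The AMOTL1 section shrinks from 80.4% to 81.8% of each bar in CBAP-expressing libraries to 24.9% to 53.1% in CBAP-deficient ones, while AMOT and AMOTL2 stay near or below 2.02 FPKM.

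Of the other 8 members, none was called between all CBAP-deficient and all CBAP-expressing libraries, where limma called 71 of 11427 genes (0.621%, with 2397 genes at an unadjusted p under 0.05). None was called within the shRNA set, where 1408 genes were (12.3%, with 3.62% higher and 8.70% lower in sh-CBAP). LATS1 and STK4 were the members with an unadjusted p under 0.05 in that set, at 0.0182 and 0.0245. Within the CRISPR set 2 members were called, LATS1 and MOB1B, both higher in CBAP-KO+GFP. That is 2 of 8 in a contrast that called 49.9% of all genes, 23.9% higher and 25.9% lower. The median difference of the 8 members was -0.02 (shRNA set) and 0.04 (CRISPR set), beside -0.06 and 0.00 for all genes tested.

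**Figure D2:**
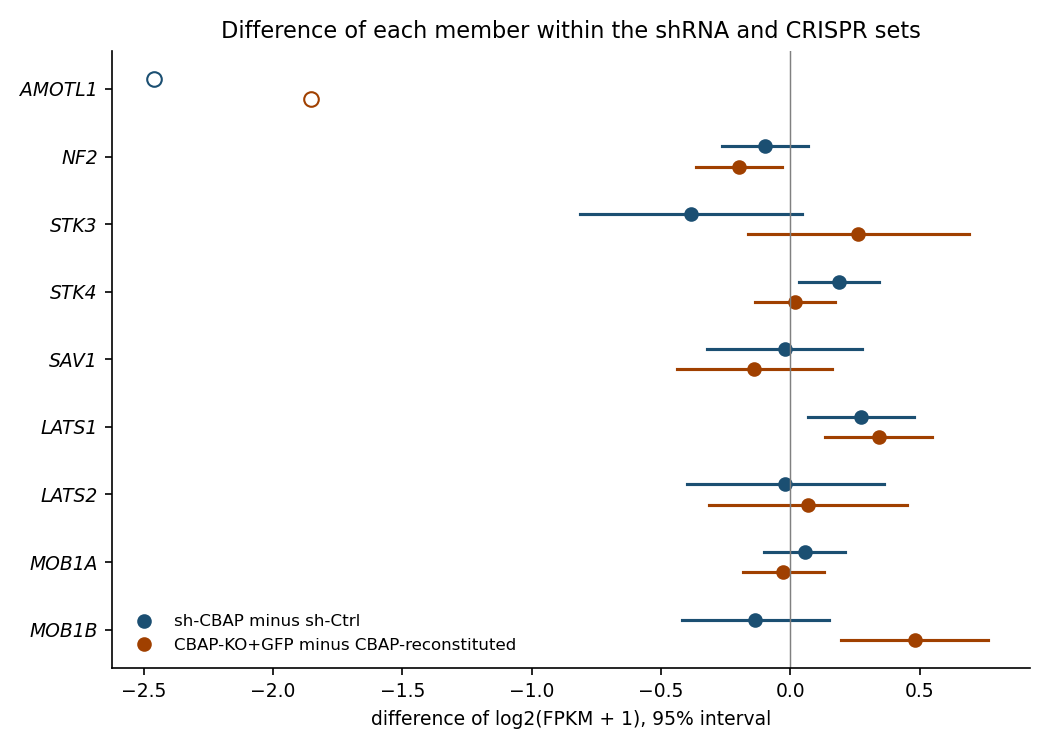
Difference of log2(FPKM + 1) between CBAP-deficient and CBAP-expressing cells (horizontal axis) for each gene, in the shRNA set (blue) and the CRISPR set (brown); bars are limma 95% intervals, and AMOTL1 is drawn open and without an interval because the group was selected on it. AMOTL1 lies at -2.46 and -1.85 and the other genes between -0.39 and 0.48.

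At the top of the cascade, STK4 was the more abundant kinase of the STK3 and STK4 pair in every library. STK4 was at 26.2 and 29.0 FPKM in sh-Ctrl, 31.2 and 31.9 FPKM in sh-CBAP, 23.3 and 23.7 FPKM in CBAP-reconstituted and 23.7 and 23.9 FPKM in CBAP-KO+GFP cells. The sh-CBAP libraries were both above the sh-Ctrl ones, but the difference of 0.19 (95% interval 0.03 to 0.34) was not called by limma (adjusted p = 0.107). In the CRISPR set the difference was 0.02 (interval -0.14 to 0.17).

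STK3 was at 13 and 12.2 FPKM in sh-Ctrl and at 9.18 and 9.67 FPKM in sh-CBAP cells. In the CRISPR set it was at 12.3 and 12.3 FPKM with CBAP, and the CBAP-KO+GFP libraries disagreed, at 12.2 and 18.3 FPKM. STK3 was lower in both sh-CBAP libraries than in any other library, yet the shRNA difference of -0.39 (SE 0.17) was not called (limma adjusted p = 0.203). The CRISPR difference of 0.26 (SE 0.17, limma adjusted p = 0.252) rested on CBAP-KO+GFP replicate 2. Without that library it was -0.01, and without replicate 1 it was 0.54 and was called (adjusted p = 0.0107). STK3 made up 22.7% and 23.3% of the pair's FPKM in sh-CBAP, against 29.7% to 34.7% in the CBAP-expressing libraries and 34.0% and 43.4% in CBAP-KO+GFP cells.

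SAV1, the scaffold of these kinases, was called between the sets and was not called with CBAP. It was at 11.1 and 9.18 FPKM in sh-Ctrl and 9.04 and 10.9 FPKM in sh-CBAP cells, which overlapped. The CRISPR set was higher throughout, at 14.7 and 15 FPKM in CBAP-reconstituted and 14.1 and 12.7 FPKM in CBAP-KO+GFP cells. The changes with CBAP were -0.02 (interval -0.32 to 0.28) and -0.14 (interval -0.44 to 0.16). Of its 100-base windows of transcript sequence, 3.04% were shared with another annotated gene, and none was for the other members, so shared reads could touch SAV1 only slightly.

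LATS1, one of the kinases that phosphorylate YAP1, was the only kinase among the members whose groups did not overlap. LATS1 was at 5.84 and 6.88 FPKM in sh-Ctrl and 6.73 and 6.85 FPKM in CBAP-reconstituted cells. It was at 7.85 and 7.87 FPKM in sh-CBAP and 8.71 and 9.03 FPKM in CBAP-KO+GFP cells. All 4 CBAP-deficient libraries were above all 4 CBAP-expressing ones, a pattern of 4.67% of genes tested. The mean FPKM was 1.24-fold higher within the shRNA set and 1.31-fold higher within the CRISPR set. On the log2 scale the difference was 0.27 (SE 0.08, limma adjusted p = 0.0899) in the shRNA set and 0.34 (SE 0.08, adjusted p = 0.0184) in the CRISPR set, and the 2 changes differed by -0.07 (interval -0.36 to 0.22). The CRISPR call was lost when any 1 of that set's 4 libraries was left out (adjusted p = 0.0658 to 0.103) and under quantile normalization (difference 0.21, adjusted p = 0.116). Over all 8 libraries the difference was 0.31 (adjusted p = 0.146), and it was called once the set was a covariate (adjusted p = 0.0396).

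LATS2, which is also listed among the genes that YAP1 activates, was the least abundant kinase among the members. Its values were 3.34 and 2.69 FPKM in sh-Ctrl, 3.54 and 2.43 FPKM in sh-CBAP, 2.56 and 2.50 FPKM in CBAP-reconstituted and 2.65 and 2.74 FPKM in CBAP-KO+GFP cells. The groups overlapped, with differences of -0.02 (interval -0.40 to 0.36) and 0.07 (interval -0.31 to 0.45). LATS1 made up 63.6% to 73.3% of the FPKM of the LATS pair with CBAP and 68.9% to 76.7% without it, ranges that overlap.

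MOB1B, an adaptor of the LATS kinases, rose in the CRISPR set, and the difference between its changes in the sets was itself called. MOB1B was at 21.1 and 18.6 FPKM in sh-Ctrl and 16.1 and 20.0 FPKM in sh-CBAP cells, which overlapped. It was at 18.4 and 18.7 FPKM in CBAP-reconstituted and 25.5 and 26.9 FPKM in CBAP-KO+GFP cells, the highest of all 8 libraries. MOB1B rose by 0.48 (SE 0.11, limma adjusted p = 0.0171) in the CRISPR set, a mean FPKM 1.42-fold higher, against -0.14 (SE 0.11, adjusted p = 0.472) in the shRNA set. The shRNA change minus the CRISPR change was -0.62 (SE 0.16, adjusted p = 0.0343), the only such call among the 8 members, where 33.8% of all genes were called. Both calls were lost when any 1 library of the CRISPR set was left out (adjusted p = 0.0530 to 0.0876 for the change and 0.0755 to 0.114 for the difference of changes). The difference of changes was also lost without sh-Ctrl replicate 1 (adjusted p = 0.0914) and with the replicate number as a block (adjusted p = 0.0558).

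MOB1A, the other MOB1 adaptor, was the most abundant member. It was at 84.7 and 83.9 FPKM in sh-Ctrl, 83.2 and 92.3 FPKM in sh-CBAP, 89.2 and 88.7 FPKM in CBAP-reconstituted and 84.8 and 89.7 FPKM in CBAP-KO+GFP cells. Its differences were 0.06 (interval -0.10 to 0.21) and -0.03 (interval -0.18 to 0.13). Under quantile normalization the CRISPR difference was 0.19 and was called (limma adjusted p = 0.0203). MOB1A held 80.0% to 82.9% of MOB1 FPKM with CBAP, 83.8% and 82.2% in sh-CBAP and 76.9% in both CBAP-KO+GFP libraries.

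NF2, the membrane protein also called merlin, was at 9.95 and 10.9 FPKM in sh-Ctrl and 10.01 and 10.02 FPKM in CBAP-reconstituted cells. It was at 9.92 and 9.44 FPKM in sh-CBAP and 8.47 and 8.74 FPKM in CBAP-KO+GFP cells. All CBAP-deficient libraries were below all CBAP-expressing ones, as for 10.3% of genes tested, but the nearest values, 9.92 and 9.95 FPKM, almost met. The differences were -0.10 (SE 0.07, limma adjusted p = 0.380) and -0.20 (SE 0.07, adjusted p = 0.0536), and neither was called. The CRISPR difference was called in 6 of 14 alternatives, with the lowest adjusted p, 0.0238, under quantile normalization (difference -0.30).

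Members were also compared between the sets, over both CBAP states. Of all 9 members, 3 were called between the CRISPR and the shRNA set, where 55.9% of genes tested were called, 42.8% higher and 13.1% lower in the CRISPR set. The median gene was shifted by 0.18 there, and under quantile normalization, which brings that shift to 0.04, 3100 genes were called higher and 2510 lower, against 4886 and 1496. STK4 fell by 0.31 (SE 0.04, limma adjusted p = 0.00262) in the CRISPR set, and SAV1 rose by 0.46 (SE 0.09, adjusted p = 0.00665), and both stayed called in the 14 alternatives tried. AMOTL1, tested here because this contrast is not the one it was selected on, was 0.25 higher (SE 0.07, adjusted p = 0.0201), close to the shift of the median gene. Its mean FPKM was lower in the CRISPR set with CBAP (8.70 against 9.06) and higher there without it (1.68 against 0.824), so this value averages opposite differences. It was not called under quantile normalization (difference 0.17, adjusted p = 0.0932) or without any 1 library of the CRISPR set (adjusted p = 0.0576 to 0.0769).

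Lists of the wider pathway held 104 genes, of which 83 had a row and 74 were tested. Without AMOTL1, 6 of 73 were called within the shRNA set, 2 higher and 4 lower, and 33 within the CRISPR set, 19 higher and 14 lower. Those shares are near or under the 12.3% and 49.9% of all genes. The median difference over the lists was 0.04 and 0.07, beside -0.06 and 0.00 for all genes. None of the 73 genes was called in the comparison of all CBAP-deficient with all CBAP-expressing libraries.

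**Figure D3:**
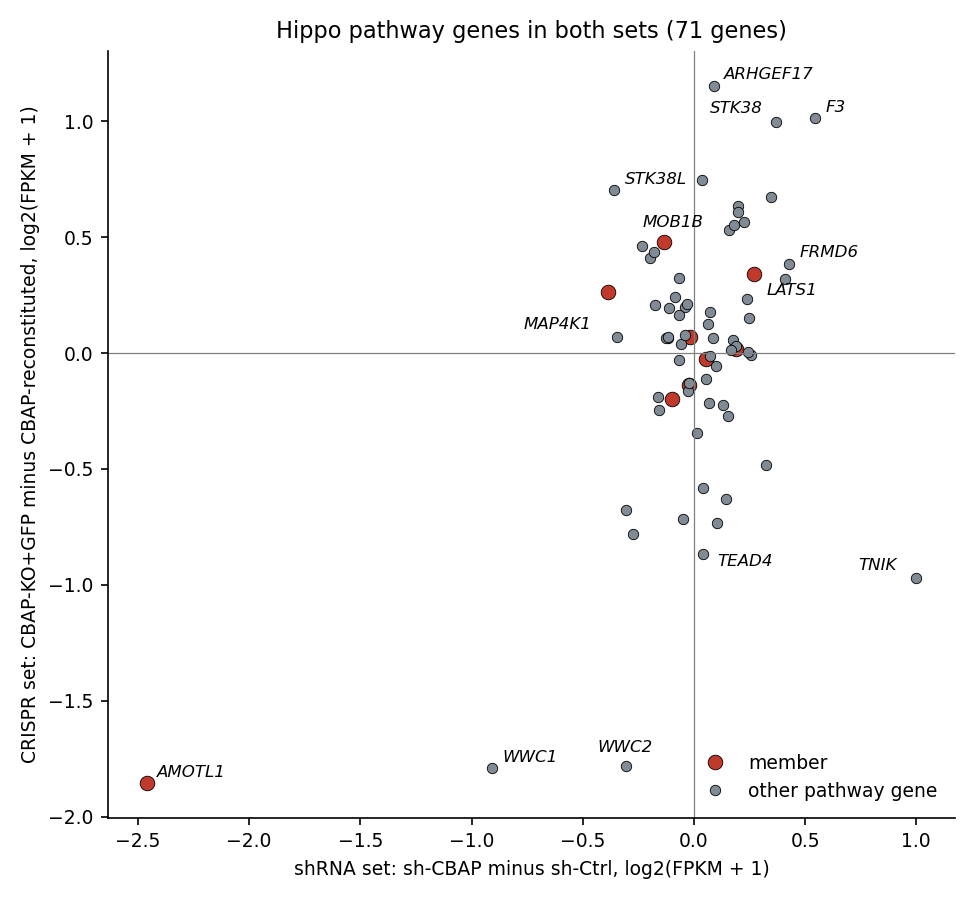
Difference of log2(FPKM + 1) in the shRNA set (horizontal axis) against the CRISPR set (vertical axis) for 71 tested genes of the pathway lists; red points are members and grey points other genes, and genes with a listed 0, such as TAOK2 and MAP4K4, are left out. AMOTL1 stands apart at the lower left, at -2.46 and -1.85, with WWC1 next to it at -0.91 and -1.79. WWC1 passed the filter on low values only through the CBAP-expressing libraries.

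Among 16 tested upstream activators, NF2 included, 3 were called with knockdown and 9 in the CRISPR set, 4 higher and 5 lower. Over all genes tested, 12.3% were called with knockdown and 49.9% in the CRISPR set. WWC1, known as KIBRA and a partner of NF2 at the membrane, was the only one of those activators called lower in both sets. WWC1 was at 1.57 and 1.67 FPKM in sh-Ctrl and 0.206 and 0.611 FPKM in sh-CBAP cells. In the CRISPR set it was at 3.03 and 2.85 FPKM with CBAP and at 0.132 and 0.143 FPKM without it. WWC1 fell by 0.91 (SE 0.15, limma adjusted p = 0.0208) after knockdown and by 1.79 (SE 0.15, adjusted p = 0.000443) in the CRISPR set, and the shRNA call was lost without any 1 CBAP-expressing library (adjusted p = 0.0642 to 0.0655). WWC1 passed the filter on low values, with a mean of 1.28 FPKM, only through the CBAP-expressing libraries, whose mean was 2.28 FPKM, so a gene chosen this way had to be lower in the others. WWC2, its relative, was at 3.25 and 3.12 FPKM in CBAP-reconstituted and 0.241 and 0.193 FPKM in CBAP-KO+GFP cells, and fell by 1.78 (SE 0.09, limma adjusted p = 8.8e-05). In the shRNA set WWC2 was at 3.31 and 3.89 FPKM with CBAP and 2.77 and 2.66 FPKM without it, a difference of -0.30 that was not called (adjusted p = 0.0882). FRMD6, the FERM-domain protein Willin, was at 2.96 and 2.94 FPKM in sh-Ctrl and 4.41 and 4.23 FPKM in sh-CBAP cells, and at 1.02 and 1.15 against 1.65 and 1.8 FPKM in the CRISPR set. FRMD6 rose in both sets, by 0.43 and 0.39 (limma adjusted p = 0.0271 and 0.00997), and the CRISPR call was lost without CBAP-reconstituted replicate 1 (adjusted p = 0.0677) or CBAP-KO+GFP replicate 2 (adjusted p = 0.0597). The shRNA call of FRMD6 was lost in 7 of 14 alternatives, without any 1 CBAP-expressing or CBAP-KO+GFP library (adjusted p = 0.0581 to 0.0753) and with the replicate number as a block (adjusted p = 0.0581).

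The kinases that feed into LATS1 and LATS2 beside STK3 and STK4 moved without a common direction. MAP4K1, a haematopoietic kinase, was at 22.7 and 23.6 FPKM in sh-Ctrl and 17.3 and 18.8 FPKM in sh-CBAP cells, and fell by 0.34 (limma adjusted p = 0.0231). It was at 19.9 and 19.9 against 21.0 and 20.8 FPKM in the CRISPR set (difference 0.07). TAOK2, which activates STK3 and STK4, was at 14.9 and 15.9 FPKM in sh-Ctrl and 18.5 and 18.6 FPKM in CBAP-reconstituted cells. It was at 14.5 FPKM in sh-CBAP replicate 1 and listed at 0 in the other CBAP-deficient libraries. Its CRISPR call (limma adjusted p = 0.0271) rests on those listed zeros, so no fold is given. TNIK, a related kinase named after its values were seen, differed between the sets in its change. It was at 2.40 and 4.48 FPKM in sh-Ctrl and 8.67 and 6.71 FPKM in sh-CBAP cells, but at 3.82 and 3.89 FPKM in CBAP-reconstituted and 1.64 and 1.33 FPKM in CBAP-KO+GFP cells. The difference was 1.0 in the shRNA set, which was not called (limma adjusted p = 0.0511), and TNIK fell by 0.97 in the CRISPR set (adjusted p = 0.0194). The shRNA change minus the CRISPR change was 1.97 (adjusted p = 0.00922).

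Of the NDR kinases, relatives of LATS that also bind MOB1, STK38 rose in both sets. It was at 19.5 and 19.1 FPKM in sh-Ctrl and 23.9 and 26.8 FPKM in sh-CBAP cells, and at 14.1 and 15.2 FPKM in CBAP-reconstituted and 29.9 and 30.5 FPKM in CBAP-KO+GFP cells. The rise was 0.37 (SE 0.07, limma adjusted p = 0.0322) in the shRNA set, lost with the replicate number as a block (adjusted p = 0.0511), and 1.0 (SE 0.07, adjusted p = 0.000307) in the CRISPR set. STK38L, the other NDR kinase, fell by 0.36 in the shRNA set (adjusted p = 0.0373), from 15.7 and 14.8 FPKM to 11.1 and 12.3 FPKM, and rose by 0.70 in the CRISPR set (adjusted p = 0.00103), from 14.8 and 16 FPKM to 25 and 26.4 FPKM. The shRNA-set calls of MAP4K1, STK38 and STK38L were each lost without any 1 CBAP-expressing or CBAP-KO+GFP library (limma adjusted p = 0.0565 to 0.119), and that of STK38L also without sh-CBAP replicate 1 (adjusted p = 0.0609) and with the replicate block (adjusted p = 0.0606). Both NDR kinases were thus higher in CBAP-KO+GFP than in CBAP-reconstituted cells, as LATS1 and MOB1B were. That contrast called 23.9% of all genes higher, and it did not call LATS2, MOB1A or MOB2 (differences 0.07, -0.03 and 0.06).

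Of 19 tested genes for phosphatase-complex and LIM-domain inhibitors of the cascade, none was called with knockdown and 6 in the CRISPR set, 4 higher and 2 lower. The share called over all genes tested was 12.3% with knockdown and 49.9% in the CRISPR set, 23.9% higher and 25.9% lower. Among 9 genes for enzymes of motin turnover, such as the tankyrases and NEDD4-type ubiquitin ligases, 4 were called in the CRISPR set, 2 in each direction, and none in the shRNA set. Of 8 tested polarity partners of the motins, 1 was called with knockdown and 3 in the CRISPR set. CCM2 was the gene called lower in both, from 41.3 and 39.2 FPKM to 32.2 and 34.0 FPKM in the shRNA set and from 49.3 and 47.6 FPKM to 28.1 and 27.5 FPKM in the CRISPR set. CCM2 was named after its values were seen.

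Downstream of the cascade, YAP1 and the TEAD genes were named after their values were seen. YAP1 was listed at 0 in sh-Ctrl replicate 1 and in both sh-CBAP libraries, and was at 0.469 FPKM in sh-Ctrl replicate 2. In CBAP-reconstituted cells YAP1 was at 3.64 and 3.65 FPKM, and in CBAP-KO+GFP cells at 0.0630 and 0.0318 FPKM. YAP1 transcript was thus near the floor in all libraries but the CBAP-reconstituted ones, and its mean was too low for a test. No row for TAZ (WWTR1) was analysed here. TEAD4, the most abundant TEAD gene, showed the same division, at 29.0 and 28.9 FPKM in CBAP-reconstituted cells and 15.3 to 17.3 FPKM in the other 6 libraries. TEAD4 fell by 0.86 in the CRISPR set (SE 0.05, limma adjusted p = 0.000107) and differed by 0.04 in the shRNA set (adjusted p = 0.625). TEAD1 was at 0.896 and 0.906 FPKM in CBAP-reconstituted and 2.0 and 2.07 FPKM in CBAP-KO+GFP cells, a rise of 0.67 (adjusted p = 0.00188), and at 1.51 and 1.5 against 2.03 and 2.35 FPKM in the shRNA set, a difference of 0.35 (adjusted p = 0.0560). These are the libraries that also stood apart in CD5 and CD28.

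**Figure D4:**
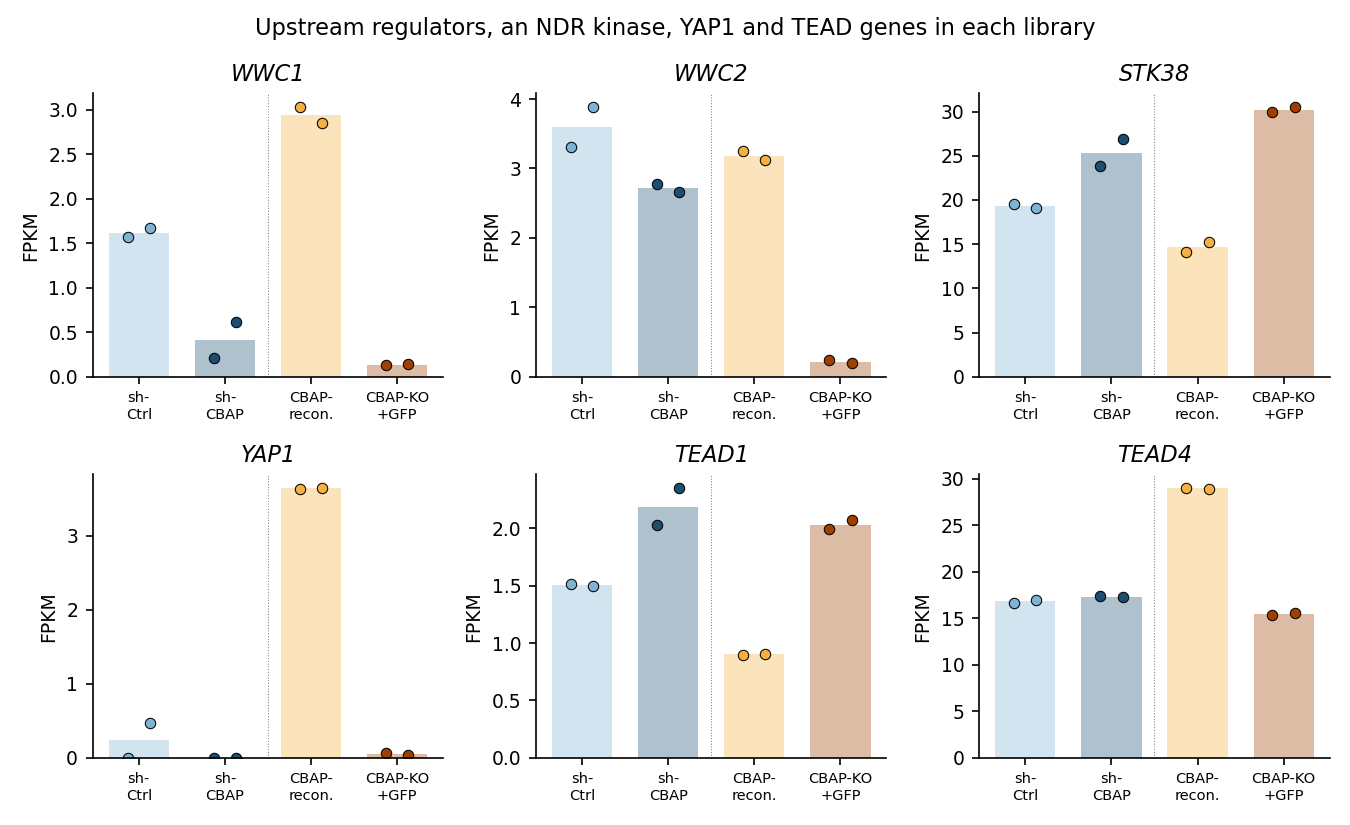
FPKM (vertical axes, each from 0) of WWC1, WWC2, STK38, YAP1, TEAD1 and TEAD4 in the 4 conditions; points are libraries, bars the mean of the 2 libraries, and the dotted line parts the sets. YAP1 reaches 3.65 FPKM and TEAD4 29.0 FPKM in CBAP-reconstituted cells, while WWC1 is lower in the CBAP-deficient libraries of both sets. WWC1 passed the filter on low values only through the CBAP-expressing libraries.

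Of 22 genes listed as targets of YAP1 and TAZ, 12 had a row and 6 were tested, LATS2 among them. None was called with knockdown and 4 were within the CRISPR set, 3 higher and 1 lower in CBAP-KO+GFP. That contrast called 49.9% of all genes, 23.9% higher and 25.9% lower. The lower gene, FJX1, was at 4.22 and 3.91 FPKM in CBAP-reconstituted and 2.73 and 2.52 FPKM in CBAP-KO+GFP cells. ARHGEF17 was at 1.08 and 0.994 FPKM in CBAP-reconstituted and 3.94 and 3.15 FPKM in CBAP-KO+GFP cells, a rise of 1.15 (SE 0.14, limma adjusted p = 0.00163). F3, tissue factor, was at 1.09 and 1.59 FPKM with CBAP and 3.39 and 4.03 FPKM without it, a rise of 1.01 (SE 0.14, adjusted p = 0.00258). In the shRNA set F3 was at 0.925 and 1.05 against 1.72 and 2.08 FPKM, a difference of 0.55 (adjusted p = 0.0630). CYR61, a canonical YAP1 target named after its values were seen, was listed at 0 throughout the shRNA set and was at 0.393 and 0.362 FPKM in CBAP-reconstituted and 0.0641 and 0.0172 FPKM in CBAP-KO+GFP cells. CRIM1 and NT5E, also untested and named after their values were seen, went the other way in the CRISPR set. CRIM1 was at 0.430 and 0.416 against 2.63 and 2.93 FPKM in CBAP-KO+GFP cells. NT5E was at 0.0664 and 0.0648 against 1.11 and 1.10 FPKM. The list thus held genes higher and genes lower where YAP1 was lower.

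Genes whose pattern was most like that of AMOTL1 were found by Pearson's r of log2(FPKM + 1) over the 8 libraries, among 10541 genes without a listed 0. This is a description, since the libraries fall into groups with high and low AMOTL1. Among the highest r were those of RRAGA (0.996), a GTPase that links amino acids to mTORC1, ALKBH7 (0.995), C16orf62 (0.990) and THOP1 (0.976). RRAGA was at 48.5 to 50.6 FPKM in CBAP-expressing libraries and 31.9 to 35.8 FPKM in CBAP-deficient ones, a smaller relative gap than that of AMOTL1. The lowest r were those of IL32 (-0.997), a cytokine, FLI1 (-0.983), an ETS transcription factor, TTC9 (-0.981), KLHL6 (-0.977) and TRAK2 (-0.976). IL32 was at 0.509 to 0.800 FPKM in CBAP-expressing libraries and 47.4 to 126.9 FPKM in CBAP-deficient ones. Among the other members r was -0.83 for LATS1 and 0.62 for NF2, and between -0.44 and 0.27 for the remaining 6.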

How the data were processed

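The authors deposited FPKM values per gene for 8 libraries of 100-bp paired-end reads, aligned with TopHat to hg19 and estimated with Cuffdiff, and the submitters' notes also name CASAVA 1.8, Bowtie and Cufflinks. The annotation, the scaling between libraries and the read depth are not given in the sources used here, and whole reads could not be recovered from the low values, so the depth behind each value is unknown. Summed FPKM was 362082 to 434742 per library. Members and gene lists were chosen with earlier results of these data known. FPKM was set to log2(FPKM + 1), genes with a mean FPKM under 1 were left out, and limma 3.58.1 (R 4.3.3) was fitted to all 11427 remaining genes with an intensity trend and Benjamini-Hochberg adjustment. One model held the 2 CBAP classes, and one held the 4 condition means with contrasts within each set, between the changes and between the sets. The script was tested on simulated data.

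Named genes were all members, from the pathway lists the 3 most changed called genes per direction and set, the 5 highest and 5 lowest r with AMOTL1, and the nearest 2 genes on each side, and 1 gene so chosen is not reported here. Alternatives were a pseudocount of 0.1, no filter, quantile normalization, no trend, a replicate block, the set as a covariate, genes with a listed 0 left out, and each library left out. Sequences came from RefSeq (GRCh38.p14), and gene positions from the GRCh37 annotation.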

Additional observations from a re-analysis of the deposited data

Results flagged for a closer look

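Dixon's test on 35 groups of 4 libraries of 1 CBAP class found 5 with a library far from the other 3. Chance gives about 1 in 20 groups, or 1.75 here, if the 4 libraries are alike. Each group pooled a condition of the shRNA set with one of the CRISPR set, between which 55.9% of genes were called, so that rate is only nominal. These were LATS1 (5.84 FPKM), STK3 (13 FPKM) and MOB1B (21.1 FPKM) in sh-Ctrl replicate 1, NF2 (10.9 FPKM) in sh-Ctrl replicate 2 and WWC1 (0.611 FPKM) in sh-CBAP replicate 2. In sh-Ctrl replicate 1 the LATS1 value is the lowest and the STK3 and MOB1B values are the highest of the 4 CBAP-expressing libraries.

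For 7 of 17 genes examined, the other 8 members and the named pathway genes, the change in the shRNA set differed from the change in the CRISPR set by limma's test of the difference itself (shRNA minus CRISPR, log2 scale), which called 33.8% of all genes tested. The difference was -0.62 for MOB1B, -0.63 for STK38, 0.88 for WWC1, -1.06 for STK38L, -0.41 for MAP4K1, -1.06 for ARHGEF17 and 1.48 for WWC2. The named pathway genes had been chosen for large called changes within a set of these same libraries, which favours a difference between the sets. The count of 7 of 17 therefore cannot be set against that 33.8%. MOB1B was the only one of the 8 members flagged. STK38 rose and WWC1 fell in both sets by unequal amounts. WWC1 passed the filter on low values only through the CBAP-expressing libraries, so it had to be lower in the others. STK38L changed in opposite directions, and MOB1B, ARHGEF17 and WWC2 were called in the CRISPR set but not in the shRNA set. MAP4K1 was called in the shRNA set alone.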

How the results depend on the processing

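Members called among the other 8 numbered 2 in the CRISPR set and none in the shRNA set or over all CBAP-deficient libraries. The set as a covariate gave 1 over all libraries, quantile normalization gave 1 in the shRNA set, and the replicate block gave 0 for the difference of the changes. Leaving out each library in turn gave 0 to 1 in the shRNA set, 0 to 3 in the CRISPR set, 0 to 1 for the difference of the changes and 2 to 5 of 9 between the sets. The description of AMOTL1 moved with the pseudocount: at 0.1 its difference was -2.81 over all libraries, -3.31 in the shRNA set and -2.30 within the CRISPR set. Without each library it ranged from -2.25 to -2.05, from -2.56 to -2.36 and from -1.87 to -1.83 in the same order. Quantile normalization reversed differences that were not called: LATS2 to 0.089 and SAV1 to 0.024 in the shRNA set, LATS2 to -0.0076 and MOB1A to 0.19 in the CRISPR set, the last called. Leaving out libraries reversed others, within -0.22 to 0.18 for LATS2, -0.14 to 0.10 for SAV1, -0.018 to 0.13 for MOB1A and -0.28 to 0.014 for MOB1B in the shRNA set, and within -0.068 to 0.013 for MOB1A and -0.012 to 0.54 for STK3 in the CRISPR set. Genes called over all libraries were 71, and 201 under quantile normalization, 11 with the replicate block, 1404 with the set as a covariate, 108 with no filter and 8 to 76 without each library. Replicate numbers did not pair the libraries, since same-numbered deviations correlated at -0.063 to 0.15. The block took the shRNA count from 1408 to 776 genes, and libraries left out gave 306 to 2376 there, 3376 to 6847 of 5697 in the CRISPR set and 1849 to 5149 of 3861 for the difference of the changes. Quantile normalization split the calls into 105 higher and 96 lower over all libraries, against 24 and 47, and into 830 and 826 in the shRNA set, against 414 and 994. Read depth is unknown and 2 libraries per condition limit every test, and a library left out also leaves fewer residual degrees of freedom.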
